A study of Mus musculus with 6 samples.

Results

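The genes described are those of the cytosolic ribosomal proteins, the protein parts of the ribosome that works outside mitochondria. They were taken by name: symbols starting with Rpl or Rps followed by a number and at most a short suffix, together with Rpsa, Rplp0, Rplp1 and Rplp2. Ribosomal S6 kinases and names ending in -ps were left out. The rule took 83 of the 15238 genes in the deposited table, and it used no measured value. Of these, 80 are annotated as protein-coding: 31 of the small subunit, 43 of the large subunit, 3 of the P stalk and 3 paralogs (Rpl22l1, Rpl7l1 and Rps27l). The other 3, Rps3a2, Rps3a3 and Rps4l, are annotated as pseudogenes. The ribosomal proteins encoded by Rpl36al and Fau are not taken by this rule.

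RNA was sequenced in bulk from fibroblasts of the intestine of Balb/c mouse pups at postnatal day 9, 3 libraries from wild-type and 3 from DdblGata1 animals. DdblGata1 mice carry a deletion in the promoter of Gata1, a blood cell transcription factor, and the labels describe them as lacking eosinophils. The cells were sorted as podoplanin-positive and negative for CD45, EpCAM and CD31, and each library was made from 100 ng of total RNA. The replicate numbers are 1, 3 and 4 for wild-type and 4, 9 and 10 for DdblGata1, and the labels do not say whether each library came from a separate animal, so p-values measure the spread between these libraries. The deletion is present in the whole animal, so effects through eosinophils and through other Gata1-expressing cells cannot be told apart.

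A ribosome joins one copy of each core protein to ribosomal RNA, and the genes encoding these proteins are active in all cells, at high levels. The small subunit reads the messenger RNA, the large subunit joins amino acids, and the P stalk, a large-subunit arm of Rplp0 carrying Rplp1 and Rplp2, recruits the translation factors. Messenger RNAs of ribosomal proteins typically begin with a C and a run of pyrimidines, the terminal oligopyrimidine tract, through which mTORC1 and the protein Larp1 control their translation. Mammalian genomes also hold many processed copies of these genes, most of them pseudogenes.

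The start-site tract is shown because it was more frequent at the annotated starts of these genes than at those of all genes. RefSeq promoter windows (GRCm38.p6), 250 bases before to 50 after an annotated start, were at hand for 60 of the 83 genes, in 71 windows. A C followed by at least 4 pyrimidines stood exactly at the annotated start, on the transcribed strand, in 13 of the 71 (18.3%), against 2.51% of all 32851 promoter windows. Allowing it to begin up to 10 bases to either side gave 53.5% against 30.7%. Windows of 30 bases around 6 of these starts follow, with the tract in capitals beginning at the annotated start.
Rps6, chr4:86857348-86857377, minus strand: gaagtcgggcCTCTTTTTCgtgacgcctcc
Rps15a, chr7:118116128-118116157, minus strand: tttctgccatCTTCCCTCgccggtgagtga
Rpl28, chr7:4792955-4792984, plus strand: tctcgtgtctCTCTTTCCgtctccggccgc
Rpl35, chr2:39005112-39005141, minus strand: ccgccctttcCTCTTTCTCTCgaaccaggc
Rpl38, chr11:114668570-114668599, plus strand: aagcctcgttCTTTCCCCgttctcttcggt
Rplp2, chr7:141447641-141447670, plus strand: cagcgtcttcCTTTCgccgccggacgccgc
A tract match is a description of these letters, and a window without one says only that the letters are not at that start. The 13 genes with the tract at the start had a median log2 fold change, DdblGata1 minus wild-type, of 0.012 (6 lower, 7 higher by value). The 47 others with a promoter window had a median of -0.024 (26 lower, 21 higher).

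The coding sequences are short. They ran from 78 to 1260 bases over the 80 protein-coding genes, with a median of 457, and the mean length of the counted transcripts had a median of 667 bases, against 2388 bases over all genes. Rpl41 is printed as the shortest, and Rps28 as a short gene whose level differed between libraries. The coding sequences are from GENCODE M21 (GRCm38), with the start and stop codons in capitals. Rpl41 lies at chr10:128548114-128549305 on the minus strand and Rps28 at chr17:33819027-33824562 on the minus strand.
Rpl41: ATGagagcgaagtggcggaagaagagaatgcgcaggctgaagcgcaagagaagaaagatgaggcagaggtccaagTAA
Rps28: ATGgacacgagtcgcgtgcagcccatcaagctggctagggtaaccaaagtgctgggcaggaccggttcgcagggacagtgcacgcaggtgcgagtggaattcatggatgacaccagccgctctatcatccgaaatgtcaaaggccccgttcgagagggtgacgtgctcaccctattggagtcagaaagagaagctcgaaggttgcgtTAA
The coding sequence of Rpl41 has 78 bases and that of Rps28 has 210 bases.

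The libraries held 28110454 to 31210800 estimated counts over the gene table. Wild-type replicates 1, 3 and 4 had mean fragment lengths of 364, 329 and 364 bases, read from the deposited effective transcript lengths, against 363, 341 and 326 bases in DdblGata1 replicates 4, 9 and 10. Wild-type replicates 1 and 4 and DdblGata1 replicate 4 are called the libraries of longer fragments below, and the other 3 the libraries of shorter fragments. The labels give no batch. All 10 fibroblast markers checked were measured, with a summed level of 49101 to 71962 TPM (a level per transcript length, scaled to the same total in each library) in wild-type against 59611 to 72095 TPM in DdblGata1 libraries. By value 8 of them were higher in DdblGata1 and 2 lower. Thy1 alone was higher at an unadjusted edgeR p under 0.05, against 6.03% of all genes. It had 149 ± 24.6 TPM (SD, n = 3) in wild-type against 369 ± 139 TPM in DdblGata1 (DESeq2 adjusted p = 0.00449). Of the 9 smooth muscle markers, which summed to 9338 to 14672 TPM in wild-type against 6575 to 10240 TPM in DdblGata1 libraries, 5 were lower in DdblGata1 at an unadjusted p under 0.05, against 4.23% of all genes. The 7 pericyte markers summed to 759 to 974 TPM in wild-type, above the 603 to 647 TPM of DdblGata1. Of the 6 tested, 4 were lower at an unadjusted p under 0.05, against 4.23% of all genes, and 2 were higher by value. The 9 endothelial markers summed to 29.2 to 33.6 TPM, below the 49.1 to 69.9 TPM of DdblGata1, where Tek alone was higher at an unadjusted p under 0.05, 6 of the 9 were lower by value and Prox1 was under 1 TPM throughout. The 7 erythroid markers summed to 1180 to 1781 TPM and 266 to 1425 TPM, all 5 tested being lower by value and 0 at an unadjusted p under 0.05. The 11 epithelial markers summed to 270 to 1455 TPM in wild-type against 372 to 514 TPM in DdblGata1, highest in wild-type replicate 1, and the 14 leukocyte markers to 24.5 to 58.2 TPM and 28.2 to 43.3 TPM, with 5 of them, among these Ccr3, Epx, Itgam and Itgax, under 1 TPM in every library. All 5 markers of interstitial cells of Cajal were lower by value in DdblGata1, Elovl6 alone at an unadjusted edgeR p under 0.05. Of 5 mesothelial markers 4 were higher and 1 lower by value. Among them Wt1 alone was higher at an unadjusted edgeR p under 0.05 (DESeq2 adjusted p = 0.0163). The part of these other cells in the results below was not tested, and in bulk RNA fewer cells of a type and less RNA per cell cannot be told apart.

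Ribosomal protein genes took about the same share of the counts in both genotypes. Their share of all estimated counts was 2.522%, 2.313% and 2.149% in wild-type replicates 1, 3 and 4, against 2.208%, 2.401% and 2.319% in DdblGata1 replicates 4, 9 and 10. The means were 2.33% ± 0.187 (SD, n = 3) and 2.31% ± 0.0969, and wild-type libraries were both the highest and the lowest. Measured per transcript length, as a share of TPM, the genes took 10.03%, 10.07% and 9.625% in wild-type against 10.28%, 10.79% and 10.28% in DdblGata1 libraries. On this scale the groups did not overlap, at 9.91% ± 0.246 and 10.5% ± 0.294. Neither share was tested, since the genes in the sum were chosen with earlier results known. Without mitochondrially encoded genes in the total, the share of counts was 2.46% ± 0.220 in wild-type against 2.41% ± 0.110 in DdblGata1 libraries.

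Within each library the genes covered a wide range of levels. Mean TPM over the 6 libraries had a median of 1411 in the small subunit (range 161 to 2786) and 1181 in the large subunit (384 to 3262). Rpl41, which encodes a very small, basic large-subunit protein, had the highest level, with 3571, 3175 and 2835 TPM in wild-type replicates 1, 3 and 4, against 3458, 3511 and 3024 TPM in DdblGata1 replicates 4, 9 and 10. Rps24, a small-subunit protein gene with several spliced forms, came next with 2599 ± 48.3 TPM (SD, n = 3) in wild-type against 2974 ± 344 TPM in DdblGata1. After it came Rps4x, an X-linked small-subunit gene, at 2394 ± 144 and 2646 ± 74.3 TPM, and Rpl31 of the large subunit at 2331 ± 149 and 2394 ± 121 TPM. Rps12 had a mean of 2246 TPM, Rpl7 of 1992 TPM, Rplp1 of 1977 TPM and Rps20 of 1942 TPM. These 4 lie closer together than the spread of Rps12, Rpl7 and Rplp1 between libraries, so their order is not resolved.

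The mean levels of the paralogs were below those of their main forms. Rpl22l1, a paralog of Rpl22 that can take its place in the large subunit, had 473, 412 and 599 TPM in wild-type against 499, 574 and 674 TPM in DdblGata1 libraries. Its mean of 538 TPM was close to that of Rpl22, at 613 TPM, and in wild-type replicate 4 it was above it (599 against 527 TPM), unlike the other 2 pairs. Rpl7l1, whose protein takes part in large-subunit assembly, had a mean of 54.6 TPM against 1992 TPM for Rpl7. Rps27l, known as a p53-responsive paralog, had 179 TPM against 1928 TPM for Rps27. Among the pseudogenes, Rps4l had 31.6 TPM against 2520 TPM for Rps4x, and Rps3a3 was the lowest of all 83 at 2.80 TPM. Rps3a2 had 713 TPM, above Rplp0 at 321 TPM, and is 99.50% identical over its aligned bases to Rps3a1, at 1608 TPM.

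No ribosomal protein gene passed the test between the genotypes. With edgeR's quasi-likelihood test and Benjamini-Hochberg adjustment at 0.05, 0 of the 83 were called, as were 0 of all 15238 genes (0%). At an unadjusted p under 0.05, 0 of the 83 were found, where 1564 of all genes (10.3%) were: 4.23% lower and 6.03% higher in DdblGata1. DESeq2 called 0 of the 83, against 214 of 14630 genes (1.46%) called. At an unadjusted p under 0.05, DESeq2 found 0 of the 83, against 1824 of 15238 genes. By value, 43 were lower and 40 higher in DdblGata1, with a median log2 fold change of -0.024 against -0.0066 over all genes tested. Upper quartile scaling gave 56 lower and 27 higher, with a median of -0.079 against -0.061 over all genes, and log2(TPM + 1) gave 26 lower and 57 higher, with 0.064 against 0.062. In both, the median of the ribosomal protein genes moved along with that of all genes.

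The intervals around these values were narrow. The 95% interval of the fold change lay within a 2-fold change in either direction for 77 of the 83 genes, against 60.3% of all genes, and within a 1.5-fold change for 64 of the 83, against 23.2%. The median SE was 0.15 on the log2 scale, against 0.24 over all genes. Fitted log2 fold changes ran from -0.36 to 0.53, and their middle range, from the 25th to the 75th percentile, was -0.11 to 0.084, against -0.26 to 0.24 over all genes.

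**Figure D1:**
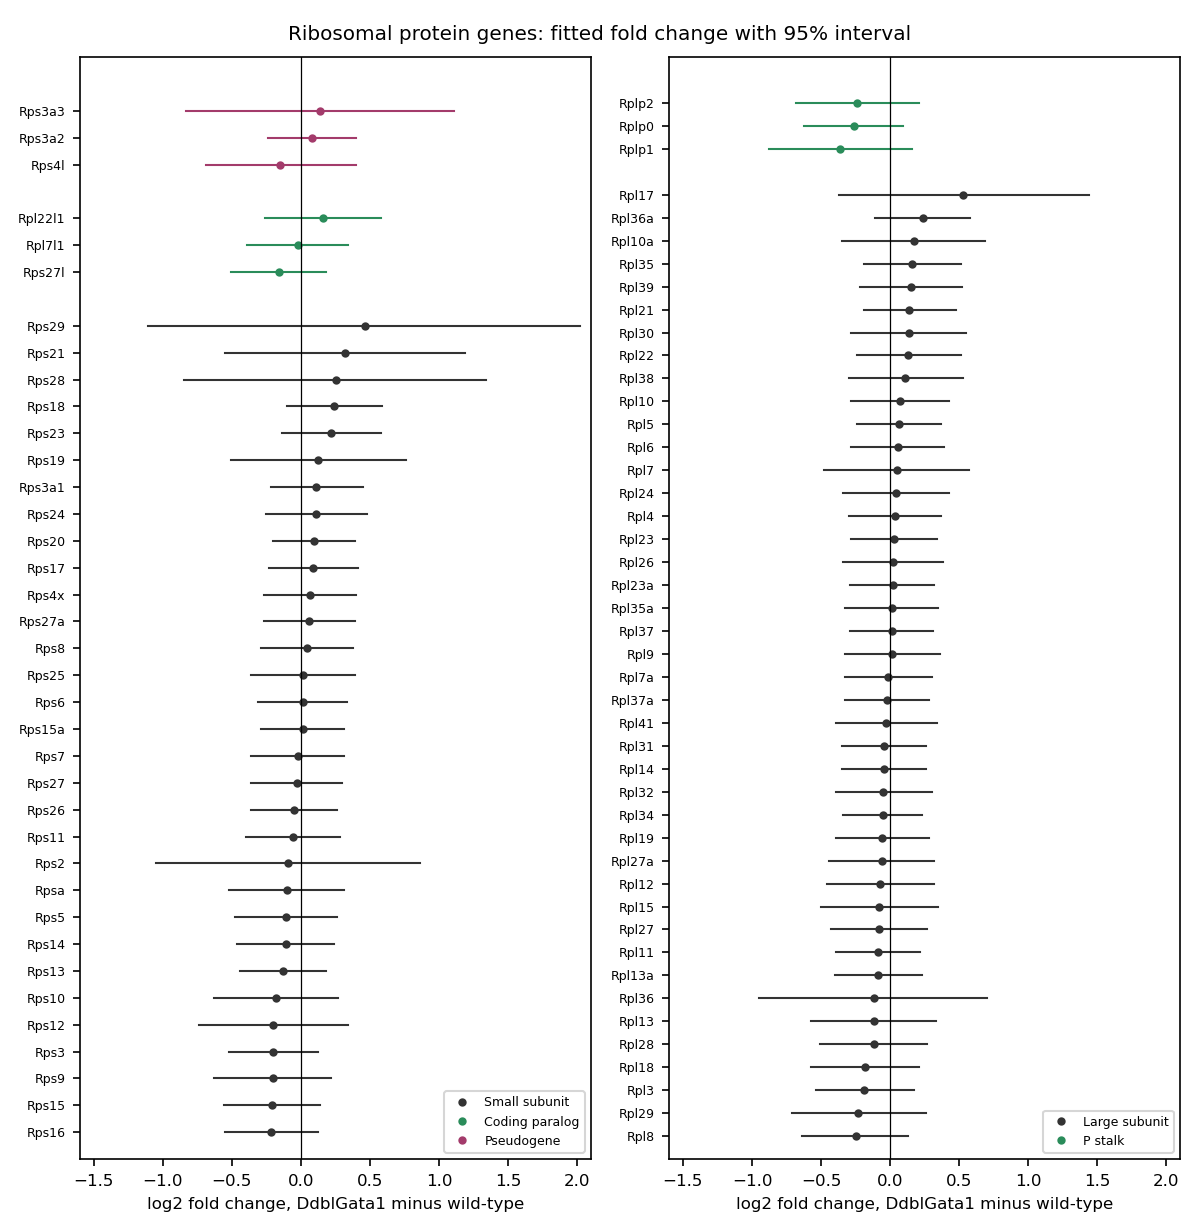
Fitted log2 fold change, DdblGata1 minus wild-type, of 82 of the 83 genes (points) with its 95% interval (lines), in the left panel for the small subunit, coding paralogs and pseudogenes and in the right panel for the large subunit and P stalk. All intervals drawn cross 0, and the widest belong to Rps29, Rps28, Rps2, Rps3a3, Rpl17, Rps21 and Rpl36.

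The 3 genes of the P stalk were lower by value in DdblGata1. Rplp0, the stalk base, had 228, 259 and 208 CPM (counts scaled to the library total, with TMM scaling) in wild-type replicates 1, 3 and 4, against 215, 191 and 172 CPM in DdblGata1 replicates 4, 9 and 10. DdblGata1 replicate 4 lay above wild-type replicate 4, so the groups overlapped. Its log2 fold change was -0.26 ± 0.15 (SE), the smallest p of the 83 genes (edgeR unadjusted p = 0.126, adjusted p = 0.559). Rplp1 had 232, 191 and 226 CPM in wild-type against 226, 158 and 123 CPM in DdblGata1 libraries, with a log2 fold change of -0.36 ± 0.23 (edgeR adjusted p = 0.583). Both genes were lowest in DdblGata1 replicates 9 and 10. For Rplp1 the libraries of shorter fragments were all below those of longer fragments, and between the longer-fragment libraries the log2 ratio of DdblGata1 to wild-type was -0.021, against -0.44 between the shorter-fragment ones. Rplp2 had 216, 303 and 210 CPM in wild-type against 174, 217 and 229 CPM in DdblGata1, with a log2 fold change of -0.24 ± 0.19 (edgeR adjusted p = 0.662). With mean fragment length as a covariate, an alternative added after seeing the data, it was -0.34 ± 0.13 (edgeR unadjusted p = 0.0354, adjusted p = 0.563).

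In the small subunit, Rps16, Rps3 and Rps18 had the smallest p-values. Rps3, a protein at the messenger RNA entry channel that also has roles in DNA repair, had 402, 371 and 386 CPM in wild-type against 364, 331 and 313 CPM in DdblGata1 libraries. Every DdblGata1 library was below every wild-type one, and the log2 fold change was -0.20 ± 0.14 (edgeR adjusted p = 0.609). Rps16 had 307, 266 and 267 CPM against 266, 222 and 235 CPM, and the log2 fold change was -0.22 ± 0.15. In the other direction, Rps18, a protein of the small-subunit head, had 47.2, 49.4 and 40.3 CPM in wild-type against 48.5, 58.3 and 54.8 CPM in DdblGata1, with a fitted log2 value of 0.24 ± 0.15 (edgeR adjusted p = 0.575). Its near-identical copies took 79.8% of the joint counts. Refitted on summed transcript counts with them added, as described below, Rps18 was at -0.041 ± 0.13. Rps23, which lies at the decoding centre, had 318, 338 and 306 CPM against 312, 406 and 402 CPM (0.22 ± 0.16). Both were highest in DdblGata1 replicates 9 and 10, and DdblGata1 replicate 4 lay within the wild-type range.

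In the large subunit Rpl17, a protein that lines the peptide exit tunnel, had the highest fitted log2 fold change of the 83 genes, 0.53 ± 0.39 (edgeR adjusted p = 0.627). It differed between libraries of the same genotype, as described below. Rpl8 had 512, 474 and 478 CPM in wild-type against 487, 394 and 349 CPM in DdblGata1 libraries, with a log2 fold change of -0.25 ± 0.17 (edgeR adjusted p = 0.596). Rpl36a, an X-linked gene, had 135, 156 and 134 CPM against 144, 180 and 178 CPM (0.24 ± 0.15, edgeR adjusted p = 0.585). Rpl35 and Rpl21 were higher by 0.16 ± 0.15 and 0.14 ± 0.15 on the log2 scale. In each of these 5 the groups overlapped.

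Groups that did not overlap were few. The 6 libraries separated by genotype for 3 of the 83 genes (3.61%), against 16.3% of all genes tested. Rps3 and Rps27l were lower in every DdblGata1 library, a direction shared by 7.34% of all genes, and Rps20 was higher in every one, a direction shared by 8.98%. Rps20, a small-subunit head protein, had 262, 274 and 268 CPM in wild-type against 292, 276 and 289 CPM in DdblGata1, with a log2 fold change of 0.092 ± 0.13. Without length or TMM scaling Rps20 had 245, 293 and 240 CPM against 252, 311 and 329 CPM, and the groups overlapped. On that scale they also overlapped for Rps3 and Rps27l. Rps27l had 27.6, 25.8 and 24.5 CPM against 22.2, 24.4 and 23.1 CPM, and the log2 fold change was -0.16 ± 0.15. Its main form Rps27 was at 211 ± 22.1 and 207 ± 13.5 CPM. Rpl22l1 had 62.1 ± 9.40 CPM in wild-type against 69.6 ± 12.3 CPM in DdblGata1 libraries, and Rpl22 had 158 ± 15.4 and 173 ± 25.9 CPM. Rpl7l1 had 53.2 ± 6.04 and 52.4 ± 6.34 CPM.

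The widest ranges within the set separated libraries by fragment length, not by genotype. For 64 of the 83 genes the highest library was less than 1.5 times the lowest, which held for 26.7% of all genes. The median of that ratio was 1.34, against 1.82 over all genes, and its highest value was 5.19, for Rps29. Rps29, a zinc-binding protein of the small-subunit head, had 26.4, 99.9 and 19.2 CPM in wild-type replicates 1, 3 and 4, against 25.3, 83.9 and 90.7 CPM in DdblGata1 replicates 4, 9 and 10. The 3 libraries of shorter fragments were high and the 3 of longer fragments low, in both genotypes, with means of 91.5 and 23.6 CPM and a ratio of 3.87. Rps29 and the genes named below for fragment length, copies or transcript forms that do not appear above were chosen after their values were seen.

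**Figure D2:**
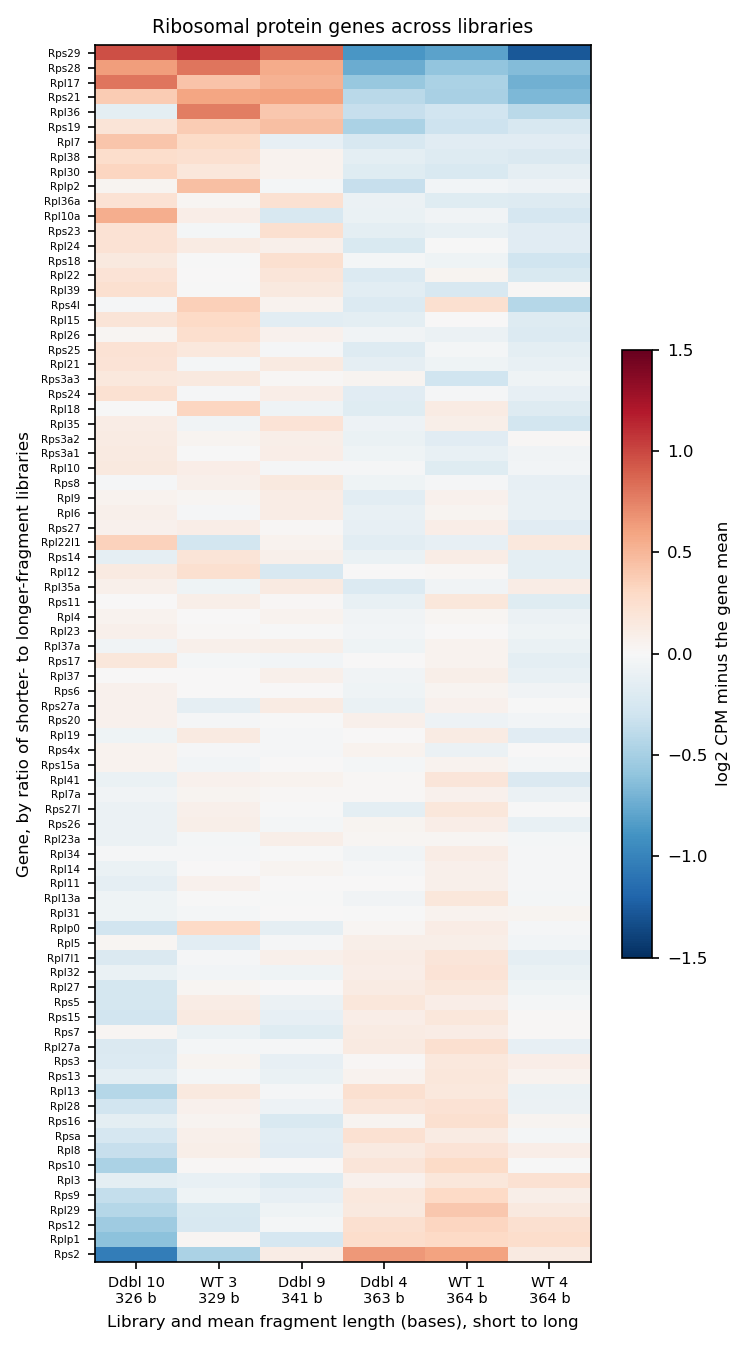
Log2 CPM of 82 of the 83 genes (rows) minus its mean over the 6 libraries, with libraries (columns) ordered by mean fragment length in bases and genes by the ratio of shorter- to longer-fragment libraries (WT, wild-type; Ddbl, DdblGata1). Red at the upper left and blue at the upper right mark Rps29, Rps28, Rpl17, Rps21, Rpl36 and Rps19, with Rps2 reversed at the bottom, while most rows are pale throughout. The pattern of Rps19 depends on the scaling.

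Rps28, whose coding sequence is printed above, had 19.3, 51.1 and 18.6 CPM in wild-type against 17.4, 43.1 and 45.0 CPM in DdblGata1 libraries, 2.52 times as high in the libraries of shorter fragments. Rps21 had 18.9, 39.8 and 16.6 CPM against 19.9, 40.0 and 34.3 CPM (2.06 times). Rpl17 had 125, 234 and 106 CPM against 118, 251 and 305 CPM (2.26 times), Rpl36 was 1.66 times and Rps19 1.60 times as high. Rps19 is the gene most often mutated in Diamond-Blackfan anaemia. Without length or TMM scaling, Rps19 had 291, 286 and 274 CPM in wild-type against 242, 290 and 256 CPM in DdblGata1 libraries. On that scale the libraries of shorter and longer fragments overlapped for it, so its ratio depends on the scaling. In the opposite direction, Rps2 had 105, 49.4 and 75.9 CPM in wild-type against 108, 74.7 and 33.7 CPM in DdblGata1, 0.546 times as high in the libraries of shorter fragments. Between libraries of the same fragment class, the log2 ratio of DdblGata1 to wild-type for Rps29 was 0.15 (longer) and -0.20 (shorter). With fragment length as a covariate its log2 fold change was 0.15 ± 0.24, against 0.46 ± 0.68 without.

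Over all 83 genes, the libraries of shorter and longer fragments did not overlap for 29 (34.9%), against 15.9% of all genes. Of these, 20 were higher in the libraries of shorter fragments, a direction taken by 7.80% of all genes, and 9 were lower, against 8.13%. A mean at least 1.5 times higher in the shorter-fragment libraries was found for 6 of the 83, against 8.32% of all genes, and one at least 1.5 times higher in the longer-fragment libraries for 1 of the 83, against 8.81%. On these scaled counts, the share of genes without overlap was thus above that of all genes for those higher in the shorter-fragment libraries. The share with a shift of 1.5 times was not. Without length or TMM scaling, the libraries overlapped for Rplp1 and did not overlap for Rps20, the reverse of the scaled values. The counts therefore depend on the scaling, and the shares were not counted without it.

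**Figure D3:**
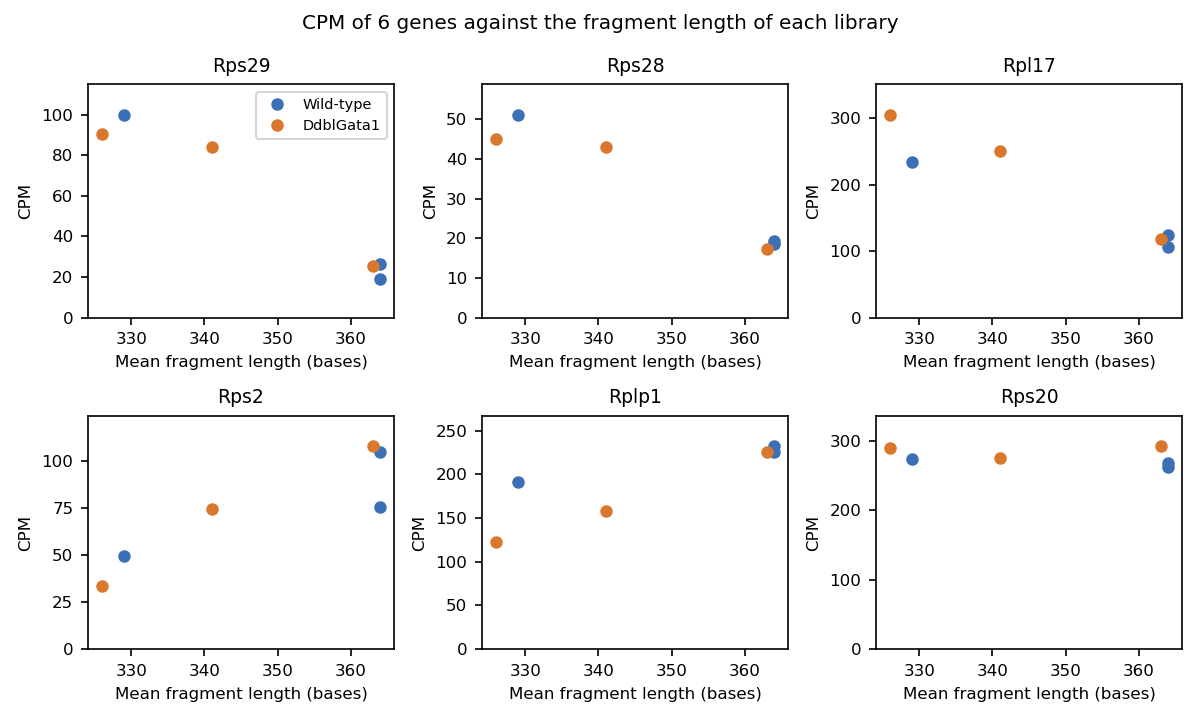
CPM of Rps29, Rps28, Rpl17, Rps2, Rplp1 and Rps20 (y axes, from 0) against the mean fragment length of each library in bases (x axes), 1 point per library, blue for wild-type and orange for DdblGata1. Rps29, Rps28 and Rpl17 are high in the 3 libraries at 326 to 341 bases and low at 363 and 364. Rps2 and Rplp1 are low in those 3 libraries, and Rps20 stays between 262 and 292 CPM. Without length or TMM scaling, Rps20 had 293 to 329 CPM in those 3 libraries and 240 to 252 CPM in the others. On that scale Rplp1 overlapped, with 206 CPM in wild-type replicate 3 against 197 CPM in DdblGata1 replicate 4.

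The 4 ribosomal protein genes whose counted transcripts average under 400 bases were Rps28 (382 bases), Rpl36 (383), Rps29 (390) and Rps21 (395), close to the fragment lengths themselves. Their log2 ratios of shorter- to longer-fragment libraries ran from 0.73 to 1.95, with a median of 1.18. The 17 other genes under 400 bases had a median of 0.88. From 400 to 500 bases the median was 0.095 over 3 ribosomal protein genes (from -0.54, for Rplp1 at 499 bases, to 0.38) and -0.10 over 80 other genes. From 500 to 700 bases it was 0.012 over 37 ribosomal protein genes and -0.10 over 369 other genes. From 700 to 1000 bases it was 0.10 over 33 and -0.12 over 982. Rpl17, at 775 bases, and Rps2, at 936, are in this last class and shifted by 2.26 and 0.546 times. Whether fragment length is the cause of any of these differences was not tested.

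**Figure D4:**
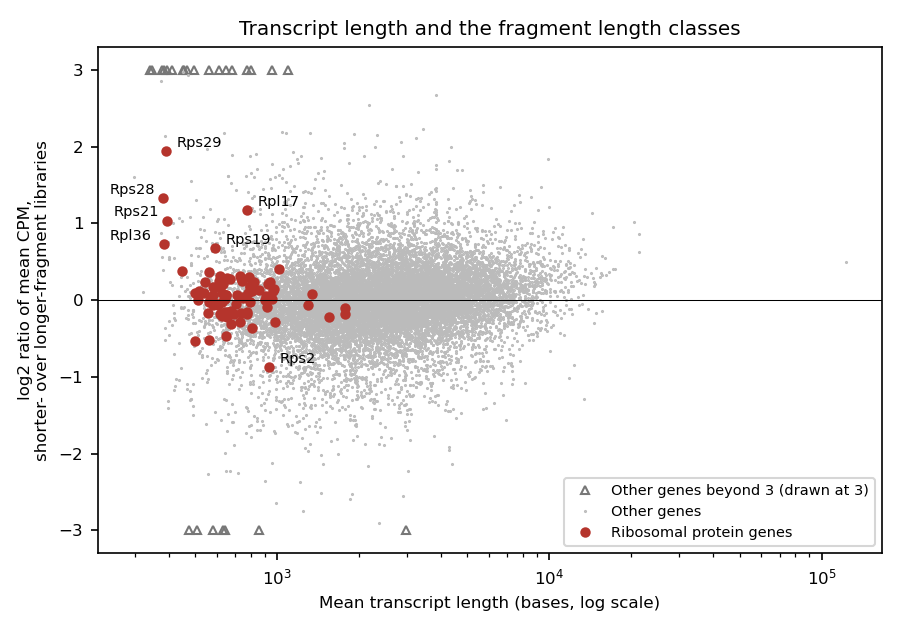
Log2 ratio of mean CPM in the libraries of shorter fragments to that in the libraries of longer fragments (y axis) against the gene's mean transcript length in bases (x axis, log scale), with ribosomal protein genes in red, other genes in grey, and other genes beyond 3 drawn as triangles at 3. The 4 red points under 400 bases (Rps29, Rps28, Rps21 and Rpl36) lie between 0.73 and 1.95, and Rpl17, Rps19 and Rps2 stand away from 0 at greater length. The place of Rps19 depends on the scaling.

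Many of the genes share nearly all of their coding sequence with other counted genes. At 95% identity or more over at least 80% of the coding sequence, 78 of the 83 had at least 1 such copy among the counted transcripts, and 555 copy genes were found in all, 67 of them in the gene table. Reads that fit both a gene and its copy are divided between them by the counting, so the level of either is uncertain. Copies took more than 10% of the counts of gene and copies together for 20 genes, and more than 50% for 8. The 8 include the pseudogenes Rps3a2 (75.5%) and Rps3a3 (99.9%), whose copies include the protein-coding Rps3a1. Rps3a1, Rps3a2 and Rps3a3 are copies of each other, so the same joint counts enter for each of them. The copies of Rps2 took 88.0%, those of Rps18 79.8%, those of Rpl3 72.6%, those of Rpl5 68.9%, those of Rpl26 61.1% and those of Rplp0 58.8%. The levels in this and the following paragraphs on copies are plain CPM, transcript counts summed per gene and scaled to the library total, without length or TMM scaling.

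Rps25 and its processed copy Rps25-ps1 show how alike such pairs are. The first 210 bases of the coding sequence of Rps25 (gene at chr9:44407139-44410427, plus strand, GRCm38) and the matching stretch of Rps25-ps1 (chr6:145266400-145266777, plus strand) are printed with the bases that differ in capitals.
Rps25: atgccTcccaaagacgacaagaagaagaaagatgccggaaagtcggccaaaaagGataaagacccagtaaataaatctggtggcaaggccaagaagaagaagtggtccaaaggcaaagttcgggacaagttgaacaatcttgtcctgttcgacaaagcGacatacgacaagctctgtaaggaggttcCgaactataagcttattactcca
Rps25-ps1: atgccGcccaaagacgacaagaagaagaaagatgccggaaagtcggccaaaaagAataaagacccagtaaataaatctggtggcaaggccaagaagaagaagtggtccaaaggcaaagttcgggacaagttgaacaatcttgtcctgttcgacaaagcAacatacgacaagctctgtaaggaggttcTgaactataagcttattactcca
Over the whole 378 bases the pair differs at 4, all within the part printed: T6G, G55A, G159A and C188T, counted from the first base of the start codon, with the base of Rps25 first. Rps25-ps1 was listed at 0 in wild-type replicates 1 and 4 and DdblGata1 replicate 4, and had 11.4, 10.7 and 13.5 plain CPM in wild-type replicate 3 and DdblGata1 replicates 9 and 10. The 3 libraries with counts were again those of shorter fragments. Rps25 itself had 286, 266 and 241 plain CPM in wild-type against 234, 305 and 319 in DdblGata1 libraries.

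Other copies also differed between libraries. Rps12-ps3, identical to Rps12 over its 399 coding bases, had 0.0206, 87.9 and 2.99 plain CPM in wild-type replicates 1, 3 and 4, against 0.00719, 27.8 and 86.7 in DdblGata1 replicates 4, 9 and 10. Rps12 itself had 383, 275 and 305 in wild-type against 333, 323 and 238 in DdblGata1, and with all its copies 384, 363, 308, 333, 352 and 340. Rps12 was lowest in wild-type replicate 3 and DdblGata1 replicate 10, where the copy was highest. Rpl10-ps1, identical to Rpl10 over 645 coding bases, ran the other way, with 139, 0 and 129 plain CPM in wild-type against 105, 104 and 0 in DdblGata1 libraries. Rpl10 ranged 1.51-fold over the libraries and 1.18-fold once summed with its copies. For Rpl17 the ranges were 2.71-fold and 1.68-fold, and for Rps2 2.99-fold and 1.30-fold.

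Summing with copies did not narrow every gene. Of the 20 genes whose copies took more than 10%, the range over libraries was narrower for the sum in 13 and wider in 7. The median range was 1.37-fold for the gene alone and 1.28-fold for the sum. The shared sum of Rps3a1, Rps3a2 and Rps3a3, which ranged 1.28-fold, was counted for each of them. All genes were also refitted with copies added to their gene, an alternative added after seeing the data. In this refit copies that are themselves among the 83, as for Rps3a1, Rps3a2 and Rps3a3, were not added to each other. edgeR called 0 of the 83. The median log2 fold change was then 0.012, against -0.017 over all genes, with 35 lower and 48 higher. This refit used transcript counts summed per gene, not the length-scaled counts of the main fit. Such counts without copies also gave a median of 0.012, with 37 lower and 46 higher. Some values changed direction between the main fit and the refit with copies. Rps18 went from 0.24 ± 0.15 to -0.041 ± 0.13, Rps19 from 0.12 to -0.12 and Rpl10a from 0.17 to -0.072. Copies took only 0.0552% of the joint counts for Rps19 and 6.02% for Rpl10a. Without copies, Rps19 had 291, 286 and 274 plain CPM in wild-type against 242, 290 and 256 in DdblGata1 libraries. With its copies Rps18 had 251 ± 25.5 plain CPM in wild-type against 245 ± 17.5 in DdblGata1 libraries. Rplp0 stayed lower by value: with its copies it had 565 ± 36.5 plain CPM (SD, n = 3) in wild-type against 467 ± 73.5 in DdblGata1 libraries, ranging 1.53-fold.

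**Figure D5:**
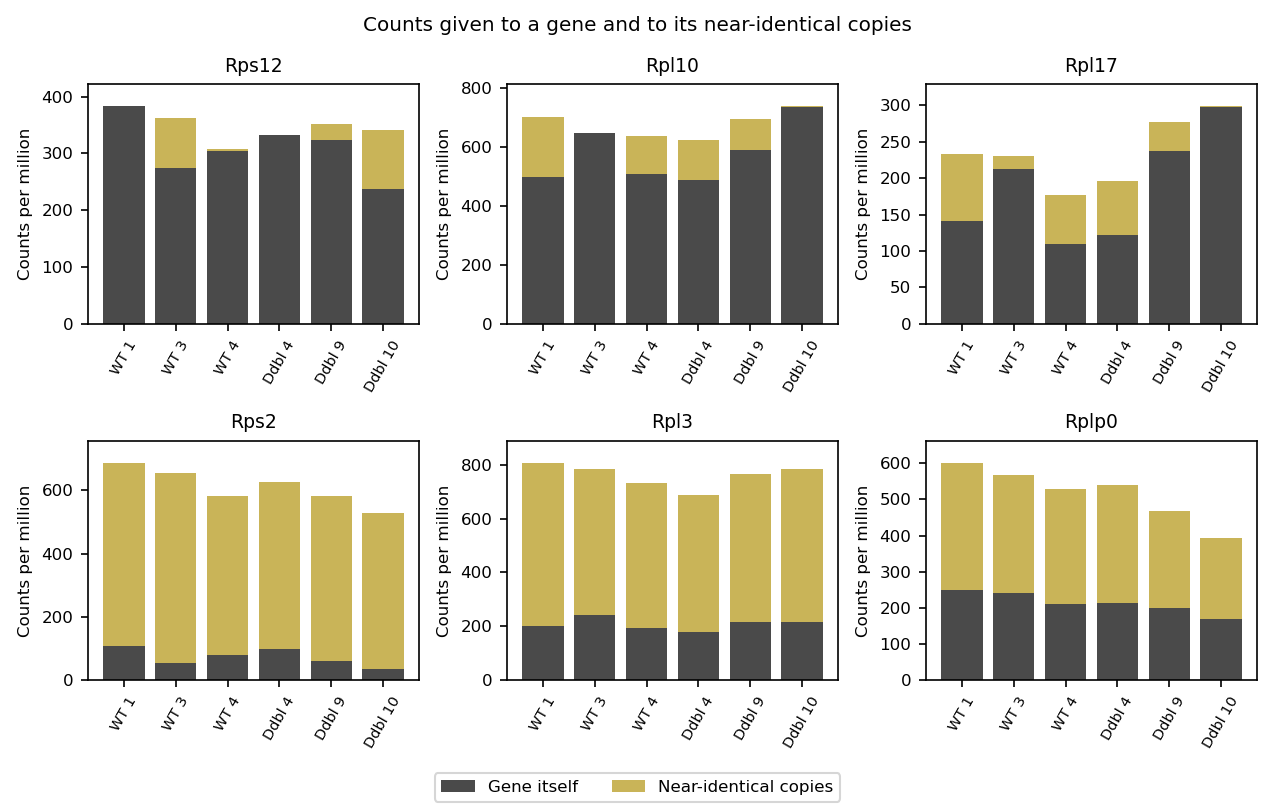
Plain CPM given to Rps12, Rpl10, Rpl17, Rps2, Rpl3 and Rplp0 (dark bars) and to their near-identical copies (yellow, stacked on top), 1 bar per library (WT, wild-type; Ddbl, DdblGata1), each axis starting at 0. The division between gene and copies differs between libraries, most for Rps12, Rpl10 and Rpl17, and for Rpl10 the total varies 1.18-fold where the gene alone varies 1.51-fold.

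The transcript forms of the genes were compared as well. For 22 of the 80 protein-coding genes (27.5%) the transcript with the highest mean TPM was not annotated as protein-coding, against 9.94% of all protein-coding genes in the table. In 13 of them it was annotated as a retained intron, in 8 as a processed transcript and in 1 as a target of nonsense-mediated decay. Of the TPM of Rps20 only 0.144% lay on protein-coding transcripts, and of that of Rpl37 0.0391%. For Rps20 a retained-intron transcript of 582 bases took 61.6%, 86.8% and 72.7% of its TPM in wild-type against 63.2%, 89.6% and 88.3% in DdblGata1 libraries, higher in each library of shorter fragments than in each of longer ones. For Rpl7 a processed transcript of 421 bases took 0%, 26.0% and 0% in wild-type against 0%, 5.47% and 27.6% in DdblGata1 libraries. Such shares are the counting program's division of reads between overlapping forms, and were not checked against reads.

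Transcript usage did not pass a test between the genotypes. Of 9447 genes with at least 2 transcripts, 72 were ribosomal protein genes. With edgeR's diffSpliceDGE and Simes p-values adjusted over all genes, 0 of the 72 were called, against 24 of all genes (0.254%), and 0 of the 72 had an unadjusted p under 0.05, against 1.94% of all. Rpl13, Rps12 and Rps23 had the smallest values, each with an edgeR adjusted p of 1. The median spread between libraries of a genotype, as an estimated coefficient of variation, was 59.2% for transcripts against 24.5% for genes. Shifts in usage could therefore be missed, and the size of shift that this test would find is not given here.

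Genes that build, use and control ribosomes were counted from lists chosen with earlier results known. edgeR called 0 genes of every list after adjustment over all genes, so the counts below are at an unadjusted p under 0.05 unless DESeq2 is named, where 4.23% of all genes were lower and 6.03% higher. Of 50 genes of pre-ribosomal RNA processing and small-subunit assembly, 1 was lower and 0 higher, and of 46 of large-subunit assembly, 2 were lower and 3 higher, with list medians of -0.012 and 0.059 on the log2 scale. Eif6, which keeps the large subunit from joining too early, had 57.2, 60.2 and 49.1 CPM in wild-type against 35.7, 34.0 and 40.4 CPM in DdblGata1 libraries. All DdblGata1 libraries were below all wild-type ones, and the log2 fold change was -0.60 ± 0.15 (edgeR adjusted p = 0.384, DESeq2 adjusted p = 0.0434). Brix1, an assembly factor of the large subunit, had 17.9, 20.1 and 17.1 CPM against 25.3, 33.8 and 29.3 CPM, and the log2 fold change was 0.68 ± 0.18 (edgeR adjusted p = 0.384, DESeq2 adjusted p = 0.0491). Rrp1b, another assembly factor, had 9.66 ± 0.421 and 16.7 ± 3.21 CPM (SD, n = 3). With Eif6 lower and Brix1 higher, large-subunit assembly had 1 gene called by DESeq2 in each direction.

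Among the other lists, immediate early genes were the one with most members at an unadjusted p under 0.05. Of 32 initiation factors 1 was lower (Eif6, which is on both lists) and 1 higher (Eif2s2), and of 8 elongation factors, 19 genes of RNA polymerase I, 23 of the mTORC1 pathway, 19 of ribosome quality control and 21 nascent chain factors, 0 in either direction. Of 20 other genes whose messenger RNAs are known to carry the pyrimidine tract, 0 were lower and 0 higher, with a median of 0.045. In the MYC family, transcription factors of ribosome production, Mycn was lower, at 6.32 ± 0.590 and 3.63 ± 0.833 CPM in wild-type and DdblGata1 (log2 fold change -0.80 ± 0.28, edgeR adjusted p = 0.444). Myc was higher, at 24.6 ± 1.12 and 36.6 ± 8.91 CPM (0.57 ± 0.21, edgeR adjusted p = 0.452). Of 16 p53 targets linked to ribosome stress 1 was higher: Mdm4, a p53 inhibitor, at 61.0 ± 7.73 and 96.1 ± 18.3 CPM (edgeR adjusted p = 0.397). Of 22 aminoacyl-tRNA synthetases and their partners 1 was lower, Mars, at 46.7 ± 1.86 and 34.8 ± 5.04 CPM. Of 18 proliferation genes (list median -0.30) 3 were lower and 0 higher, and of 20 immediate early genes (0.53) 0 were lower and 16 higher.

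The ribosomal proteins of mitochondria gave another picture by value. Of 78 measured genes 70 were lower and 8 higher in DdblGata1, with a median log2 fold change of -0.23, against 43 and 40 with -0.024 for the cytosolic set. Of the mitochondrial genes 6 (and 0 in the other direction) were lower at an unadjusted p under 0.05 by edgeR, against 4.23% of all genes, and 1 was called lower by DESeq2, as were 72 of all genes. Mrpl47 had 17.0, 12.7 and 13.3 CPM in wild-type against 7.70, 8.57 and 7.30 CPM in DdblGata1 libraries. The difference between the sets was not tested. Over other genes, the median log2 fold change was -0.24 for those of 500 to 700 bases, -0.17 from 700 to 1000 bases and 0.059 from 2000 bases, and it was -0.26 from 400 to 500 bases (80 genes) but 0.43 for the 17 under 400 bases. The median of the cytosolic ribosomal protein genes, 77 of which are under 1000 bases, lay near that of all genes.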

How the data were processed

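The authors deposited a gene table of estimated counts and, per library, for 115270 transcripts, the expected counts and TPM of kallisto. The transcript files the authors deposited also hold other values: lengths and effective lengths in bases. The submitters' processing notes name kallisto, R 4.2.2, DESeq2 and GRCm38.p6; versions of kallisto and DESeq2 are not given in the sources used here. Of the gene table's values, 99.7% equalled length-scaled TPM within 1% plus 1 count, so the counts are not scaled between libraries, and a gene is listed where 3 or more libraries reach 10 counts. The deposited sample sheet also gives a size factor per library (a ratio) and 2 surrogate variables (a score).

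Genes were tested with edgeR 4.0.16 in R 4.3.3 on all 6 libraries (TMM, filterByExpr, which removed 0 genes, robust quasi-likelihood fit, no covariate, Benjamini-Hochberg over 15238 genes), with DESeq2 1.42.0 and limma 3.58.1 as alternatives, and transcript usage with diffSpliceDGE on rounded transcript counts. The tests were tried on simulated data. For transcript usage a set recovery was required only at a lower dispersion than that of these data. CPM are TMM-scaled. Fold changes are fitted log2 values; SE is the fold change over the root of F. Transcripts were placed with GENCODE M21 (113492 of 115270), copies found with BLAST 2.17.0. Fragment length came from 5053 transcripts of at least 2000 bases without counts. The genes named were the 6 with the smallest p in each direction, the 8 highest and 3 lowest by TPM, the paralogs with their main forms, and up to 3 per list; others, among them those named for fragment length, copies or transcript forms, were chosen after their values were seen. Members and lists were chosen with earlier results of these data known. The results of a few genes that these rules take are not reported here.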

Additional observations from a re-analysis of the deposited data

How the results depend on the processing

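edgeR, DESeq2, limma-voom and limma-trend called 0 of the 83 genes, as did edgeR with other scalings and filters, with summed transcript counts, with the deposited surrogate variables and without each library in turn, and the 3 alternatives added after seeing the data. At an unadjusted p under 0.05 the count of 0 lower became 1 with the deposited surrogate variables (Rplp2; 12.2% of all genes in either direction), 1 with fragment length as a covariate (Rplp2; 8.26%) and ranged from 0 to 2 when one library was left out. The count of 0 higher ranged from 0 to 3 in the same way. Without wild-type replicate 3 the 3 higher were Rpl17, Rps21 and Rps29, with 9.21% of all genes under 0.05. Without DdblGata1 replicate 4 they were Rpl17, Rpl36a and Rps23, with Rpl8 and Rplp1 lower. That fit had 17.8% of all genes under 0.05. Without wild-type replicate 3, all wild-type libraries are of longer fragments, and without DdblGata1 replicate 4, all DdblGata1 libraries are of shorter ones. The median log2 fold change, -0.024, ranged from -0.062 to 0.0094 without one library and was 0.064 on log2(TPM + 1) and 0.064 on log2(TPM + 0.1), where the median of all genes was 0.062 and 0.076. The difference in share, DdblGata1 minus wild-type, was 0.54 percentage points for TPM. Transcript usage calls stayed at 0 of the genes tested under the F test, a filter at 10% of the gene and without each library. Of 732 values of 35 named genes, 716 moved by less than the SE, 16 moved by more, and 59 changed sign.

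No paired analysis was possible because the labels give no pairing between the groups. Replicate number 4 occurs in both, but the labels do not say that it links them. Depth was 28110454 to 31210800 counts per library, and its effect was not tested; 3 libraries per group and the division of reads among copies also limit the comparison.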
